A study of Mus musculus with 12 samples.

Results

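DNA replication and nucleotide supply were followed through 46 named mouse genes, listed by the known function of their products and covering the loading of the replicative helicase, its activation, the polymerases, the sliding clamp and strand joining, the making of deoxynucleotides, histone deposition behind the fork, and the cyclins and the transcription factor of the passage from G1 into S phase. A gene was taken to be measured where a probe set of the array carried its symbol and no other, and it was represented by the probe set of highest mean over the 12 arrays. This held for 45 of the 46 genes (all but Chaf1a), out of 18193 genes measured on the array.

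The arrays profiled spleen T cells of female C57BL/6 mice of 8 to 12 weeks in 4 groups, and no group carried a gene deletion. CD8+ NKT-like cells (n = 5) were independent cultures of bulk CD8+ T cells grown with beads bearing anti-CD3 and anti-CD28 and with high-dose IL-2 for more than a week, and cultured CD4+ T cells (n = 3) were grown in the same way from sorted CD4+ T cells. Naïve CD8+ T cells (n = 2) were freshly isolated by depletion of other cells and so were enriched and not sorted to purity, and activated CD8+ T cells (n = 2) had been stimulated with anti-CD3 and anti-CD28 in solution at a low dose. The sources used here do not state how many mice lie behind each sample. Cell division at harvest was not measured in these files. Values are log2 signals after RMA, a method that corrects background, brings the probe signals of the arrays to one distribution and summarizes the probes of a probe set. The summarized values still differed in spread, with an SD from 1.78 in naïve replicate 2 to 2.03 in cultured CD4+ replicate 2.

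In the array data, CD8 transcripts marked the CD8+ groups and Cd4 the cultured CD4+ cells, with Cd8a at 6.42 to 6.92 and Cd4 at 9.82 to 10.10 in the latter. Both naïve arrays also carried transcripts of other spleen cells. The summed linear signal of 8 red cell precursor markers was 5900 to 8480 in the naïve arrays against 630 to 862 in the other arrays, all 8 having their highest mean in naïve cells, and that of 10 B cell markers was 13100 to 13900 against 584 to 1370, with 9 of 10 highest in naïve cells. Those of 9 T cell markers (13700 to 31300), 10 myeloid markers (685 to 1220) and 6 stromal markers (358 to 478) overlapped between naïve and NKT-like arrays. The markers were unequal. Mean log2 signals in naïve and NKT-like cells were 11.59 and 6.19 for Car1 and 12.92 and 5.65 for Jchain. They were 5.47 and 5.47 for Alas2, 5.45 and 5.28 for Hba-a1, 6.42 and 6.41 for Pax5 and 5.01 and 5.12 for Ebf1. Red cell precursors are dividing cells. These marker values stand beside every comparison with naïve cells below, and their part in the result was not tested. Array medians lay between 6.23 and 6.42.

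Replication starts at origins that have been licensed in G1, when the origin recognition complex with Cdc6 and Cdt1 loads the ring-shaped Mcm helicase onto DNA. On entry into S phase, cyclin E with Cdk2 and a second kinase let Cdc45 and the GINS complex join the helicase, primase and the polymerases begin synthesis, and the clamp Pcna, loaded by the Rfc complex, keeps polymerases on the template. Deoxynucleotides are supplied by ribonucleotide reductase and by salvage kinases. Resting T cells hold little of this machinery, and stimulation through the T cell receptor with CD28 and IL-2 is known to induce it through transcription factors of the E2F family.

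Because E2F factors are the textbook regulators of these genes, the promoters are shown first. Windows from 250 bases before to 50 bases after the start site were given by RefSeq (GRCm38.p6) for 38 of the 46 genes, in 44 windows. The E2F-type words TTTCCCGC, TTTCGCGC, TTTGCCGC and TTTGGCGC were searched on both strands, and at least 1 of them was in 14 of the 44 windows (31.8%), against 2.26% of all 32851 windows of this length. The word CCAAT, searched likewise and counted apart even where it overlapped one of those words, was in 24 (54.5%) against 37.4%, and both kinds were in 9 (20.5%) against 0.962%. The stretches below are all 10, from 9 genes, whose E2F-type word lies wholly before the start site, out of 18 in 14 genes. They are written 5′ to 3′ on the strand of the gene, and capitals mark the word, or a run of overlapping words:
Cdc6: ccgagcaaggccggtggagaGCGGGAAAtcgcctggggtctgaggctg
Cdk2: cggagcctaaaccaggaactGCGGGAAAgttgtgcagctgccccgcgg
Gins3: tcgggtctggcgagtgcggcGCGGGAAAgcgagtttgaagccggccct
Mcm5: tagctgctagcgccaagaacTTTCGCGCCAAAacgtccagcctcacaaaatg
Mcm6, distal: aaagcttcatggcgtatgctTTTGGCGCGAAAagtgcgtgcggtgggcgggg
Mcm6, proximal: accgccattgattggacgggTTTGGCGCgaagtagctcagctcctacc
Mcm7: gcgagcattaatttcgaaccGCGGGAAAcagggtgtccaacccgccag
Orc1: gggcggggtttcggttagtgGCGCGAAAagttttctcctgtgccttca
Pola1: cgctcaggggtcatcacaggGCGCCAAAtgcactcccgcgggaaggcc
Rfc3: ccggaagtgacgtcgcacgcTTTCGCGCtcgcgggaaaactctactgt
In Cdc6, which helps load the helicase, the printed stretch is chr11:98907993-98908040 on the + strand, and the first base of its word stands 138 bases before the start. The Cdk2 stretch lies at chr10:128705164-128705211 on the - strand. Mcm5 at chr8:75109336-75109387 (+ strand) and the distal stretch of Mcm6 at chr1:128359784-128359835 (- strand) each carry 2 overlapping words. The proximal Mcm6 stretch is at chr1:128359725-128359772 on the - strand, that of Gins3 at chr8:95633498-95633545 on the + strand and that of Rfc3, whose word begins 10 bases before the start, at chr5:151651191-151651238 on the - strand. The Mcm7 stretch is at chr5:138172021-138172068 on the - strand, that of Orc1 at chr4:108579407-108579454 on the + strand and that of Pola1 at chrX:93632266-93632313 on the - strand. The lower-case part of the Rfc3 stretch also holds the reverse complement of TTTCCCGC. That second word begins at the start site, so it is among the 18 but is not marked. A match is a description of these letters and no measure of binding.

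Genes of DNA replication and nucleotide supply were higher in each stimulated group than in naïve CD8+ T cells, and less so in CD8+ NKT-like cells than in cultured CD4+ or activated CD8+ T cells. The median log2 difference over the 45 genes was 0.70 in NKT-like cells, 1.46 in cultured CD4+ cells and 1.62 in activated CD8+ cells, where the median over all genes in NKT-like cells was -0.05. At a q-value of 0.01 or less (limma with Storey's q over all probe sets), 17 of the 45 genes rose in NKT-like cells, 31 in cultured CD4+ cells and 26 in activated CD8+ cells, and none fell. The shares of all genes called higher were 10.7%, 11.6% and 4.43%, and those called lower 6.86%, 5.64% and 2.78%. At an unadjusted p under 0.05 the limma fit gave 2 genes lower in NKT-like cells (18.8% of all genes) and 0 in each of the other groups. With Benjamini-Hochberg adjustment 8 genes passed in NKT-like cells, and fits of only the 2 groups compared gave 0 in activated cells. With whole cultures measured, a smaller share of cycling cells and less RNA per cycling cell cannot be told apart. All 3 comparisons use the same 2 naïve arrays.

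Signals that did not overlap gave a similar picture. In 41 of 45 genes every cultured CD4+ array was above both naïve arrays (25.6% of all genes), and the same number held for activated cells (21.1%). For NKT-like cells it was 21 of 45 (20.9%), and in 1 gene, Cdt1, every NKT-like array was below both naïve arrays (28.2% of all genes). By group means, 23 genes followed the order activated, cultured CD4+, NKT-like and naïve, and 13 followed cultured CD4+, activated, NKT-like and naïve. The naïve mean was the lowest of the 4 in 39 genes, and the NKT-like mean in the other 6. The highest mean was that of activated cells in 27 genes, of cultured CD4+ cells in 17 and of NKT-like cells in 1, Orc2.

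**Figure D1:**
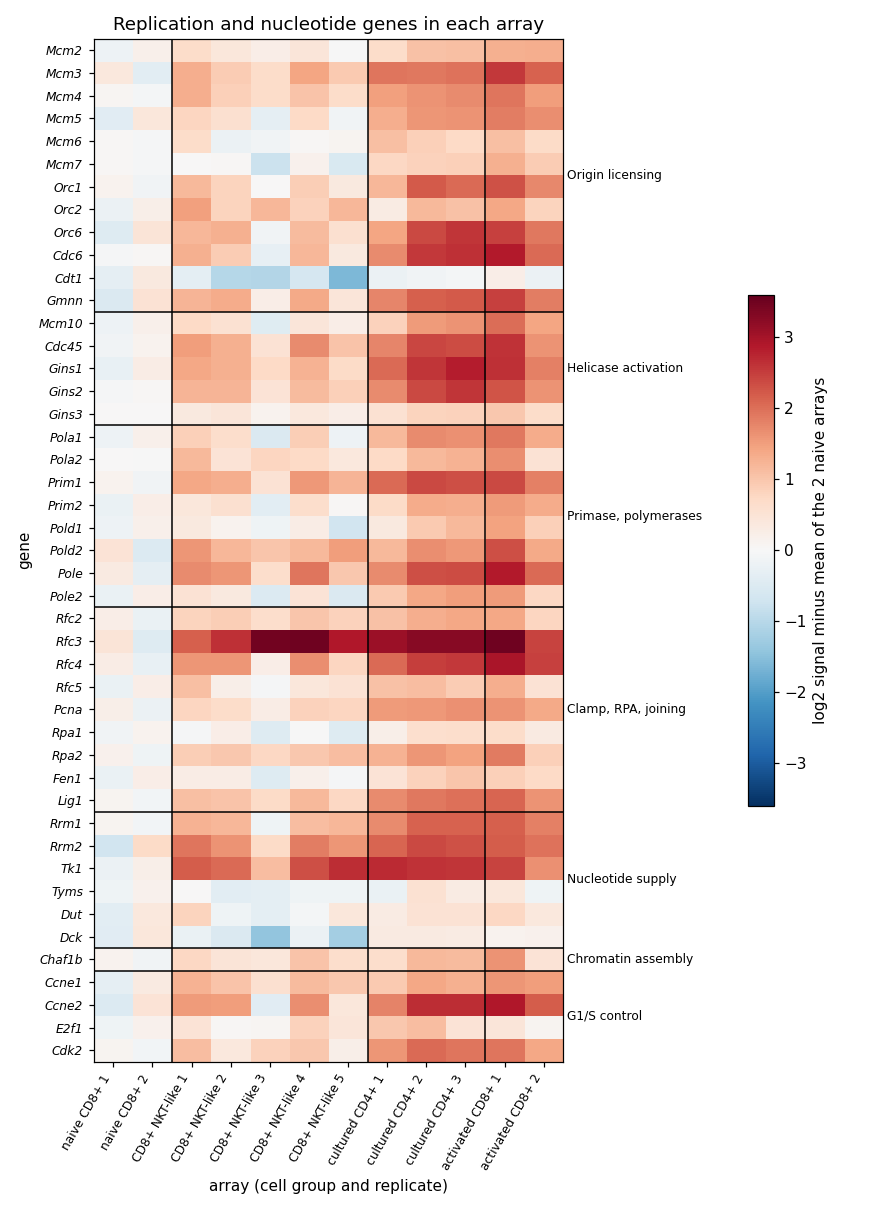
Log2 signal of each of the 45 genes (rows, grouped by role) in each of the 12 arrays (columns), minus the mean of the 2 naïve arrays (color, log2 units). Red is widespread in the cultured CD4+ and activated columns and paler in the NKT-like columns, where replicate 3 is palest, while Cdt1 and Dck are blue in most NKT-like arrays.

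These counts rest on few arrays. Without naïve replicate 1 or 2 the NKT-like count was 5 or 2, and without NKT-like replicate 1 or 4 it was 10, in the first case with Cdt1 lower (log2 difference -1.08, q = 0.0087). The cultured CD4+ count was 17 without naïve replicate 1, 14 without naïve replicate 2 and 19 without cultured CD4+ replicate 2 or 3. The activated count was 9 and 5 without naïve replicates 1 and 2, and 4 without activated replicate 1. A lone array left in a group was assumed to vary like the other groups, and a q of 0.010 given for a lost call lies just above the threshold. With each array left out in turn, 11 of the 31 cultured CD4+ calls were kept throughout (Mcm3, Mcm4, Cdc45, Gins1, Gins2, Prim1, Rfc3, Pcna, Lig1, Tk1 and Cdk2), as were 3 of the 26 activated calls (Mcm3, Mcm4 and Lig1) and 0 of the 17 NKT-like calls, of which 15 were lost without naïve replicate 2.

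The calls also rest on the probe set taken for a gene. Where the brightest probe set did not pass, a dimmer one of the same gene was higher than naïve for 5 genes in NKT-like cells (Mcm2, Mcm5, Prim2, Pold1 and Fen1), for 4 in the CD4+ cultures (Mcm7, Pold1, Fen1 and Dck) and for 4 in activated cells (Mcm6, Mcm7, Prim2 and Fen1). In the same way NKT-like cells were lower than the CD4+ cultures in 2 further genes (Mcm6 and Dck) and lower than activated cells in 2 (Mcm6 and Mcm10). Other probe sets of called genes often did not pass. Against naïve, 8 of 18 passed in the same direction in NKT-like cells, 17 of 32 in the CD4+ cultures and 11 of 27 in activated cells. In the opposite direction 1 passed in NKT-like cells and 1 in the CD4+ cultures. The same counts were not made over all genes.

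**Figure D2:**
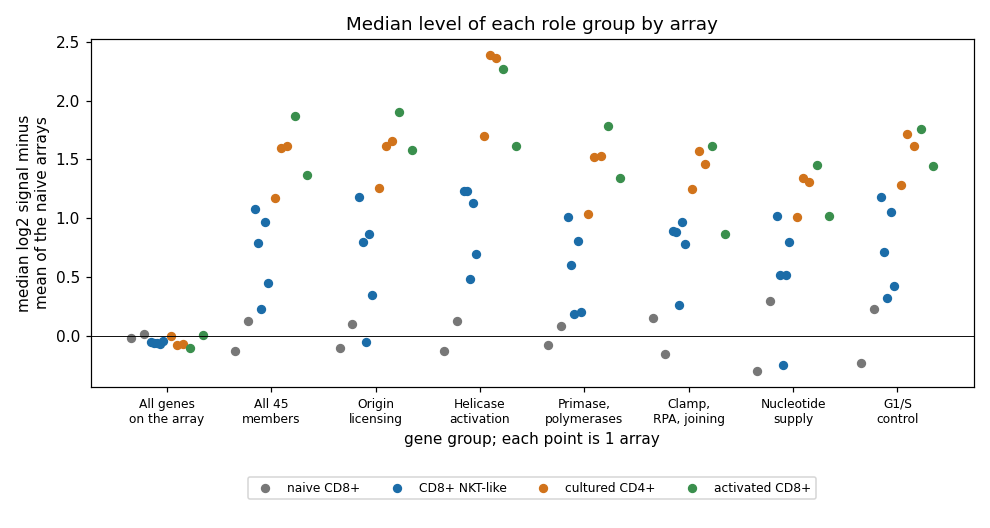
Median over genes of the log2 signal minus the mean of the naïve arrays (vertical axis, log2 units), for all genes on the array, all 45 genes and each role group of more than 1 gene, with 1 point per array. All-gene medians stay between -0.10 and 0.02, and over the 45 genes the 5 NKT-like arrays, at 0.23 to 1.08, lie below the 3 cultured CD4+ arrays at 1.17 to 1.61 and the 2 activated arrays at 1.37 and 1.87.

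Among the 12 genes of origin licensing, 9 rose in cultured CD4+ cells, 7 in activated cells and 3 (Mcm3, Mcm4 and Orc2) in NKT-like cells, with median log2 differences of 1.56, 1.74 and 0.67. Cdc6, which with Cdt1 loads the helicase and whose promoter stretch is shown above, had log2 signals of 7.12 and 7.20 in the naïve arrays, 8.44, 8.08, 6.86, 8.36 and 7.51 in the NKT-like arrays, 8.86, 9.70 and 9.80 in the cultured CD4+ arrays and 10.02 and 9.20 in the activated arrays. The cultured CD4+ and activated arrays were all above the naïve arrays, and NKT-like replicate 3 lay just below the naïve arrays. Its log2 difference from naïve was 2.30 ± 0.45 (SE, n = 3 and 2 arrays, limma q = 0.0021) in cultured CD4+ cells, 2.45 ± 0.49 (q = 0.0063) in activated cells and 0.69 ± 0.41 (q = 0.10) in NKT-like cells. The first did not pass without naïve replicate 1 (q = 0.017) or 2 (q = 0.025), and not without replicate 2 (q = 0.012) or 3 (q = 0.011) of the CD4+ cultures, and the second did not without either naïve array (q = 0.037 and 0.050), activated replicate 1 (q = 0.058) or cultured CD4+ replicate 2 (q = 0.011).

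The 6 subunits of the helicase ring were unequal. Mcm3 was 3.81-fold above naïve in cultured CD4+ cells, 5.01-fold in activated cells and 2.06-fold in NKT-like cells (limma q = 2.1e-04, 4.5e-04 and 0.0039), the last not passing without naïve replicate 2 (q = 0.12). Mcm4 rose in all 3 groups too, by 3.04-, 3.30- and 1.87-fold, the last not passing without naïve replicate 1 (q = 0.014) or 2 (q = 0.051). A second Mcm4 probe set gave log2 differences of 1.25 (limma q = 0.0040), 1.69 (q = 0.0040) and 0.45 (q = 0.093), the last not passing. In NKT-like cells, other Mcm3 probe sets gave 1.25 (q = 0.0026), 1.30 (q = 0.0053), 0.65 (q = 0.012) and 0.19 (q = 0.22). By their brightest probe sets, Mcm2 and Mcm5 rose in cultured CD4+ and activated cells and Mcm6 in cultured CD4+ cells. Mcm7 had the brightest probe set of the group, with log2 signals of 11.86, 11.89, 11.10, 12.02 and 11.31 in NKT-like cells, 12.61, 12.68 and 12.73 in cultured CD4+ cells, 13.13 and 12.76 in activated cells and 11.89 and 11.82 in naïve cells. Cultured CD4+ and activated arrays were above the naïve ones and NKT-like replicates 3 and 5 were below them, yet no comparison with naïve passed (q = 0.21, 0.016 and 0.017). Another probe set of Mcm7 gave log2 differences of 1.11 (q = 0.014), 1.74 (q = 0.0030) and 1.95 (q = 0.0070), so its level depends on the probe set. Likewise a second Mcm2 probe set gave 1.17 (q = 0.0034) in NKT-like cells where the chosen one gave 0.34 (q = 0.078), and a second Mcm5 probe set gave 1.65 (q = 0.0018) there against 0.32 (q = 0.20).

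Of the subunits of the origin recognition complex, Orc1, its largest, had the lowest mean of the licensing genes, at 7.45 and 7.21 in naïve, 8.49, 8.12, 7.35, 8.22 and 7.68 in NKT-like, 8.53, 9.54 and 9.37 in cultured CD4+ and 9.63 and 9.05 in activated cells (log2 signal). NKT-like replicate 3 lay between the naïve arrays, and the other NKT-like arrays were above the naïve and below the cultured CD4+ ones. Orc2 ran differently, though not by every probe set. For NKT-like cells a second probe set gave 0.30 log2 above naïve (limma q = 0.17), less than for the CD4+ cultures (0.51, q = 0.081) or activated cells (0.93, q = 0.043). The dimmest gave 1.33 (q = 0.0099), 0.38 (q = 0.21) and 0.39 (q = 0.41). By its brightest probe set, Orc2 was the 1 gene of the 45 with its highest mean in NKT-like cells, 0.01 log2 above activated cells. It was 2.14-fold above naïve there (q = 0.0055), with ratios of 1.79 (q = 0.025) for cultured CD4+ cells and 2.13 (q = 0.032) for activated cells. The NKT-like difference did not pass without naïve replicate 1 (q = 0.062) or 2 (q = 0.037) and was also lost with replicate 1, 3 or 5 of the NKT-like cultures left out (q = 0.011 for each). Orc6 rose in cultured CD4+ cells (4.36-fold, q = 0.0036), a call that was lost without either naïve array (q = 0.040 and 0.013) or without cultured CD4+ replicate 2 or 3 (q = 0.019 and 0.018).

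Cdt1, the loading factor, and its inhibitor Gmnn (geminin) had different orders of groups. Cdt1 had log2 signals of 11.36 and 12.03 in the naïve arrays, 11.33, 10.67, 10.63, 11.08 and 10.07 in the NKT-like arrays, 11.47, 11.57 and 11.63 in the cultured CD4+ arrays and 11.93 and 11.47 in the activated arrays. Every NKT-like array was below every other array, with replicate 5 the lowest, but the difference from naïve (-0.94 ± 0.29 log2, limma q = 0.017) did not pass, and the cultured CD4+ and activated means were -0.14 and 0.01 from naïve. Its second probe set gave -0.49 (q = 0.10) in NKT-like cells. For Gmnn the ratio to naïve was 4.09 in the CD4+ cultures (q = 0.0020), 4.44 in activated cells (q = 0.0063) and 1.89 in the NKT-like cultures (q = 0.037). Both Gmnn calls were lost without naïve replicate 1 (q = 0.027 and 0.053), among other arrays.

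All 5 genes of helicase activation rose in cultured CD4+ and in activated cells, and 3 of them (Cdc45, Gins1 and Gins2) rose in NKT-like cells. Gins1, a subunit of the GINS complex that binds the helicase at the fork, had log2 signals of 7.93, 7.82, 7.26, 7.81 and 7.24 in NKT-like cells, 8.58, 9.11 and 9.37 in cultured CD4+ cells, 9.18 and 8.35 in activated cells and 6.28 and 6.81 in naïve cells. Each stimulated array was above the naïve arrays, and all NKT-like arrays were below all cultured CD4+ arrays. The log2 differences from naïve were 1.06 ± 0.29 (limma q = 0.0096), 2.47 ± 0.32 (q = 1.8e-04) and 2.22 ± 0.35 (q = 0.0019) for the NKT-like, CD4+ and activated groups. The NKT-like value did not pass without either naïve array (q = 0.098 and 0.045) or NKT-like replicate 1, 2 or 4 (q = 0.018 to 0.021), nor without replicate 2 or 3 of the CD4+ cultures (q = 0.015 and 0.011). The activated value did not pass without naïve replicate 1 (q = 0.017) or 2 (q = 0.010) or activated replicate 1 (q = 0.019).

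Gins2, the brightest of the group, had 7.78 and 7.85 in naïve, 9.05, 9.05, 8.30, 8.95 and 8.69 in NKT-like, 9.52, 10.20 and 10.39 in cultured CD4+ and 10.08 and 9.43 in activated cells (log2 signal). It kept the same order of groups, with 4.66-fold in cultured CD4+ cells and 1.99-fold in NKT-like cells. Gins3 had the lowest mean, with log2 signals of 7.44 and 7.44 in the naïve arrays, 7.78, 7.87, 7.56, 7.81 and 7.69 in the NKT-like arrays, 7.99, 8.24 and 8.27 in the cultured CD4+ arrays and 8.41 and 8.09 in the activated arrays, and the smallest changes of the 5 in cultured CD4+ and activated cells, 1.65- and 1.75-fold (limma q = 0.0016 and 0.0043, both lost without naïve replicate 1, at q = 0.014 and 0.025, or 2, at q = 0.022 and 0.039). Cdc45 was 2.30-, 4.53- and 4.30-fold above naïve, and the NKT-like calls of Gins2 and Cdc45 were lost without naïve replicate 1 (q = 0.059 and 0.072) or 2 (q = 0.090 and 0.074) and without several other arrays (q = 0.013 to 0.020). A dimmer Cdc45 probe set was lower than naïve in NKT-like (-0.38 log2, q = 0.0088) and cultured CD4+ cells (-0.48, q = 0.0044). Mcm10, which helps the helicase start, rose 2.51-fold in the CD4+ cultures and 3.27-fold in activated cells, and both calls were lost without naïve replicate 1 (q = 0.055 and 0.058) and without several other arrays.

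Primase and the polymerases fell into genes that rose in all 3 groups and genes that passed in few or none. Prim1, the catalytic subunit of primase, had the highest mean, with log2 signals of 9.44, 9.36, 8.59, 9.62 and 9.27 in NKT-like cells, 10.09, 10.43 and 10.37 in cultured CD4+ cells, 10.45 and 9.87 in activated cells and 8.19 and 7.93 in naïve cells. Every stimulated array was above both naïve arrays and the NKT-like arrays were the lowest of these. The ratios to naïve in the same order of groups as above were 2.29, 4.71 and 4.27 (limma q = 0.0027, 1.3e-04 and 0.0011), the first lost without naïve replicate 1 (q = 0.016) or 2 (q = 0.062) and the last without naïve replicate 2 (q = 0.017) or activated replicate 1 (q = 0.013). A second Prim1 probe set gave log2 differences of 0.55 (limma q = 0.14), 1.85 (q = 0.0056) and 1.84 (q = 0.022), passing only in cultured CD4+ cells. Pole, the catalytic subunit of the leading-strand polymerase, had the lowest mean, with 7.29 and 6.65 in naïve, 8.67, 8.56, 7.61, 8.90 and 7.95 in NKT-like, 8.67, 9.28 and 9.31 in cultured CD4+ and 9.83 and 9.0 in activated cells (log2 signal). NKT-like replicates 1 and 4 reached the lowest cultured CD4+ value, and replicate 3 stayed nearest to the naïve arrays. Its ratios were 2.58 (q = 0.0083), 4.34 (q = 0.0015) and 5.44 (q = 0.0034), and without naïve replicate 2 these had q of 0.16, 0.033 and 0.046. The NKT-like call was also lost without naïve replicate 1 (q = 0.022), NKT-like replicate 1, 2 or 4 or replicate 2 or 3 of the CD4+ cultures (q = 0.012 to 0.018), and the activated call without naïve replicate 1 (q = 0.010) or activated replicate 1 (q = 0.035).

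Pold2, an accessory subunit of the polymerase delta, differed little between the stimulated groups, with log2 signals of 8.16 and 7.17 in the naïve arrays, 9.25, 8.87, 8.67, 8.83 and 9.17 in the NKT-like arrays, 8.84, 9.33 and 9.23 in the cultured CD4+ arrays and 10 and 9.04 in the activated arrays. The stimulated arrays overlapped one another and all were above the naïve arrays, whose own values were far apart. Its log2 differences were 1.29 ± 0.30, 1.46 ± 0.32 and 1.85 ± 0.36 (limma q = 0.0045, 0.0038 and 0.0051), and without naïve replicate 2 none passed (q = 0.13, 0.075 and 0.061). Single calls were also lost without NKT-like replicate 1 (q = 0.010), replicate 2 or 3 of the CD4+ cultures (q = 0.020 and 0.017) or activated replicate 1 (q = 0.046).

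The catalytic subunit Pold1 had log2 signals of 8.95, 8.75, 8.46, 8.87 and 7.93 in NKT-like cells, 8.95, 9.56 and 9.77 in cultured CD4+ cells, 10.05 and 9.46 in activated cells and 8.44 and 8.79 in naïve cells by its brightest probe set. NKT-like values ran across the naïve ones, and no difference passed (limma q = 0.39, 0.038 and 0.040). A second Pold1 probe set gave 1.16 (q = 0.0077) in NKT-like and 1.25 (q = 0.0086) in cultured CD4+ cells. Pole2, an accessory subunit of the leading-strand polymerase, had 8.16 and 8.66 in naïve, 8.93, 8.75, 7.92, 8.90 and 7.90 in NKT-like, 9.34, 9.79 and 9.91 in cultured CD4+ and 9.93 and 9.15 in activated cells (log2 signal), with NKT-like replicates 3 and 5 below both naïve arrays and no call (q = 0.37, 0.013 and 0.066). Pola2, of the polymerase that starts each strand, had log2 signals of 8.50 and 8.47 in the naïve arrays, 9.66, 8.98, 9.24, 9.21 and 8.86 in the NKT-like arrays, 9.21, 9.64 and 9.73 in the cultured CD4+ arrays and 10.14 and 9.0 in the activated arrays, with every stimulated array above the naïve ones but no call either (q = 0.040, 0.014 and 0.042). By its second probe set Prim2 was higher in NKT-like cells (1.08, q = 0.0092), and by its first it was not called there (0.25, q = 0.22). Pola1 and Prim2 rose in cultured CD4+ cells, 2.83- and 2.17-fold (q = 0.0094 and 0.0092), and both calls were lost without naïve replicate 1 (q = 0.062 and 0.073) and without naïve replicate 2 (q = 0.050 and 0.034).

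The clamp, its loader and the strand-joining enzymes held the largest difference of the 45 genes by the brightest probe set of each, that of Rfc3, although dimmer probe sets of Rrm2, described below, exceeded it in the CD4+ cultures and in activated cells. Rfc3, a small subunit of the clamp loader, had log2 signals of 8.02, 8.49, 9.33, 9.37 and 8.74 in NKT-like cells, 8.96, 9.15 and 9.15 in cultured CD4+ cells, 9.37 and 8.30 in activated cells and 6.32 and 5.41 in naïve cells. All stimulated arrays were far above the naïve arrays, and the 3 stimulated groups overlapped. The ratio to naïve was 7.60 in NKT-like cells (log2 2.93 ± 0.39, limma q = 2.2e-04), 9.33 in cultured CD4+ cells (3.22 ± 0.43, q = 2.2e-04) and 7.84 in activated cells (2.97 ± 0.47, q = 0.0019). The naïve signals lie at or below the median of the whole table (6.30), a range of low signal, so these ratios are lower bounds if the naïve arrays were at background. Without naïve replicate 2 these were 2.47 (q = 0.010, just above the threshold) in NKT-like and 2.51 (q = 0.028) in activated cells, and the latter was 2.44 (q = 0.021) without activated replicate 1.

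Rfc4, another loader subunit, did not share that pattern, with 7.47 and 6.94 in naïve, 8.79, 8.78, 7.43, 8.86 and 7.98 in NKT-like, 9.24, 9.68 and 9.75 in cultured CD4+ and 10.13 and 9.65 in activated cells (log2 signal). NKT-like replicate 3 lay among the naïve values and all NKT-like arrays were below the cultured CD4+ and activated ones. The log2 differences from naïve were 1.16 ± 0.37 (limma q = 0.017), 2.35 ± 0.40 (q = 9.2e-04) and 2.69 ± 0.44 (q = 0.0023), the last 2 not passing without naïve replicate 2 (q = 0.021 and 0.032). Rfc2 rose in all 3 groups, 1.78-, 2.39- and 2.14-fold, without naïve replicate 2 in none (q = 0.099, 0.015 and 0.073). Rfc5 had log2 signals of 9.15 and 9.65 in the naïve arrays, 10.48, 9.60, 9.35, 9.80 and 9.93 in the NKT-like arrays, 10.46, 10.50 and 10.31 in the cultured CD4+ arrays and 10.70 and 9.93 in the activated arrays. Its cultured CD4+ and activated arrays were above the naïve ones, and no difference passed (q = 0.12, 0.014 and 0.072).

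Pcna, the sliding clamp, had the brightest probe set of these genes, with log2 signals of 12.51, 12.40, 12.02, 12.59 and 12.53 in NKT-like cells, 13.28, 13.32 and 13.40 in cultured CD4+ cells, 13.36 and 13.11 in activated cells and 11.97 and 11.53 in naïve cells. The groups were tightly held and did not overlap except that cultured CD4+ and activated arrays were mixed. It rose 1.57-fold in NKT-like cells (limma q = 0.0069), 2.99-fold in the CD4+ cultures (q = 8.7e-05) and 2.79-fold in activated cells (q = 8.3e-04). Without naïve replicate 2 the NKT-like difference was 0.44 (q = 0.16) in place of 0.66, and it was also lost without naïve replicate 1 (q = 0.010), NKT-like replicate 1, 2, 4 or 5 or replicate 2 or 3 of the CD4+ cultures (q = 0.010 to 0.015). The activated call was lost without naïve replicate 2 (q = 0.012). Lig1, which joins the fragments of the lagging strand, had 8.94 and 8.75 in naïve, 9.92, 9.87, 9.55, 10.02 and 9.60 in NKT-like, 10.56, 10.74 and 10.82 in cultured CD4+ and 10.95 and 10.48 in activated cells (log2 signal). Its pattern was that of Pcna, with ratios of 1.93, 3.63 and 3.66 (q = 0.0010, 2.8e-05 and 1.9e-04), the first lost without naïve replicate 2 (q = 0.032).

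Fen1, which trims the flaps before joining, had log2 signals of 11.32 and 11.79 in the naïve arrays, 11.82, 11.81, 11.10, 11.74 and 11.50 in the NKT-like arrays, 12.05, 12.38 and 12.55 in the cultured CD4+ arrays and 12.41 and 12.26 in the activated arrays. NKT-like replicate 3 was below both naïve arrays, the cultured CD4+ and activated arrays were above them, and no difference passed (limma q = 0.37, 0.015 and 0.049). A dimmer Fen1 probe set rose in all 3 groups, by 1.56 (q = 0.0013), 2.22 (q = 2.9e-04) and 1.96 (q = 0.0030) log2. Rpa1, the large subunit of the protein that coats single strands, had log2 signals of 11.88, 12.16, 11.46, 11.91 and 11.45 in NKT-like cells, 12.12, 12.52 and 12.54 in cultured CD4+ cells, 12.58 and 12.23 in activated cells and 11.80 and 12.05 in naïve cells, with small differences and no call (q = 0.25, 0.066 and 0.17), while its partner Rpa2 rose 1.91-, 2.71- and 2.58-fold (q = 0.0052, 8.8e-04 and 0.0052). Without naïve replicate 2 no Rpa2 difference passed (q = 0.10, 0.020 and 0.061), and the NKT-like and activated ones also did not without naïve replicate 1 (q = 0.020 and 0.017).

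**Figure D3:**
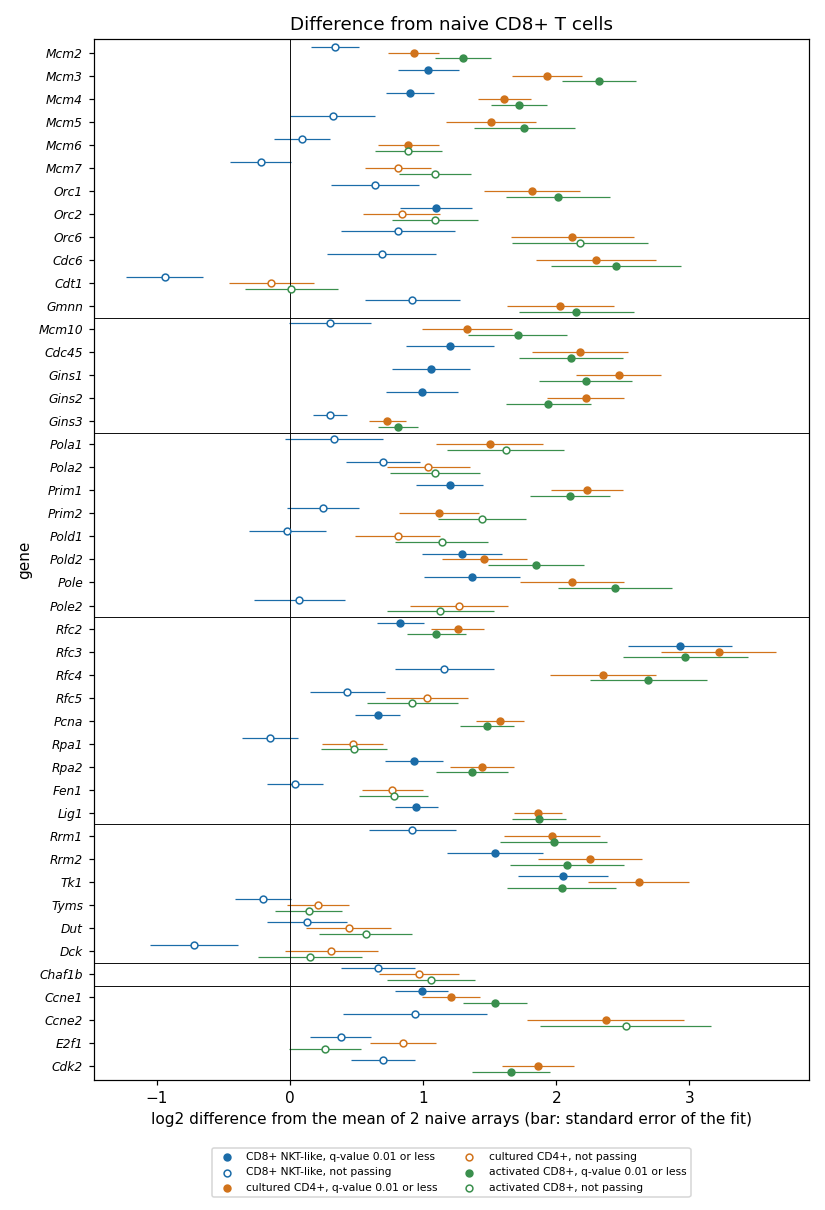
Log2 difference from the mean of the 2 naïve arrays (horizontal axis) for each gene in NKT-like (blue), cultured CD4+ (orange) and activated CD8+ cells (green), with the standard error of the limma fit as a bar and filled points for q of 0.01 or less. Rfc3 stands farthest to the right in all 3 groups, and Cdt1 (-0.94) and Dck (-0.72) are the NKT-like points farthest to the left.

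Among the 6 genes of nucleotide supply, the same 3 positions recur: Rrm2 and Tk1 rose in all 3 groups, Rrm1 in cultured CD4+ and activated cells, and Tyms, Dut and Dck in none. Rrm2, the small subunit of ribonucleotide reductase, had 9.10 and 10.46 in naïve, 11.72, 11.41, 10.48, 11.63 and 11.38 in NKT-like, 11.87, 12.15 and 12.08 in cultured CD4+ and 11.97 and 11.74 in activated cells (log2 signal). The naïve arrays differed by more than 1 log2 unit, and all stimulated arrays were above both. The log2 differences were 1.54 ± 0.36 (limma q = 0.0048), 2.25 ± 0.39 (q = 0.0011) and 2.08 ± 0.43 (q = 0.0072). Both other Rrm2 probe sets gave larger differences, 2.49 (q = 9.2e-05) and 2.83 (q = 2.3e-04) in NKT-like cells, 3.14 and 3.31 (q = 4.1e-05 and 1.6e-04) in the CD4+ cultures and 2.82 and 3.09 (q = 5.3e-04 and 0.0014) in activated cells, so the size of the rise depends on the probe set. Without naïve replicate 1 those of the brightest probe set were 0.86 (q = 0.076), 1.57 (q = 0.013) and 1.40 (q = 0.052), and the NKT-like call was also lost without NKT-like replicate 1 (q = 0.010) or 4 (q = 0.011). The activated call was lost without either activated array, NKT-like replicate 2, 4 or 5 or replicate 2 or 3 of the CD4+ cultures (q = 0.011 to 0.051).

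Tk1, which salvages thymidine in S phase, had log2 signals of 7.67 and 8.10 in the naïve arrays, 10.05, 9.92, 8.98, 10.19 and 10.55 in the NKT-like arrays, 10.57, 10.47 and 10.46 in the cultured CD4+ arrays and 10.32 and 9.53 in the activated arrays. NKT-like replicate 5 was among the highest arrays and replicate 3 the lowest stimulated array. The ratios to naïve were 4.15, 6.13 and 4.11 (limma q = 8.4e-04, 3.5e-04 and 0.0063). In NKT-like cells the call was lost without naïve replicate 1 (q = 0.015) or 2 (q = 0.012), and in activated cells without either naïve array (q = 0.046 and 0.034), activated replicate 1 (q = 0.058), NKT-like replicate 1 (q = 0.010) or replicate 2 or 3 of the CD4+ cultures (q = 0.012 and 0.011). Rrm1, the large subunit of the reductase, had ratios to naïve of 3.93 in the CD4+ cultures (q = 0.0014), 3.95 in activated cells (q = 0.0061) and 1.89 in the NKT-like cultures (q = 0.028). Without naïve replicate 2 the first 2 did not pass (q = 0.024 and 0.060), and the activated one also did not without naïve replicate 1 (q = 0.027), activated replicate 1 (q = 0.048) or replicate 2 or 3 of the CD4+ cultures (q = 0.011 and 0.010).

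Dck, the salvage kinase for deoxycytidine, had log2 signals of 9.61, 9.34, 8.43, 9.63 and 8.64 in NKT-like cells, 10.18, 10.17 and 10.14 in cultured CD4+ cells, 9.99 and 10.01 in activated cells and 9.45 and 10.25 in naïve cells. NKT-like replicates 3 and 5 were more than 1 log2 unit below the naïve mean, and every NKT-like array was below every cultured CD4+ and activated array. Neither the difference from naïve (-0.72 ± 0.33, limma q = 0.053) nor that from cultured CD4+ cells (-1.03 ± 0.28, q = 0.062) passed, although a dimmer Dck probe set was lower in the NKT-like than the CD4+ cultures (-0.64, q = 0.0089). Dut, which removes dUTP, had 10.40 and 11.18 in naïve, 11.59, 10.63, 10.44, 10.71 and 11.21 in NKT-like, 11.08, 11.32 and 11.30 in cultured CD4+ and 11.53 and 11.18 in activated cells (log2 signal), with the NKT-like, cultured CD4+ and naïve arrays overlapping. Tyms, which makes thymidylate, had log2 signals of 5.69 and 5.99 in the naïve arrays, 5.86, 5.46, 5.50, 5.69 and 5.68 in the NKT-like arrays, 5.61, 6.39 and 6.14 in the cultured CD4+ arrays and 6.26 and 5.69 in the activated arrays. All of these lie near or below the median of the whole table (6.30), a range of low signal, and no difference in Dut or Tyms passed (lowest q = 0.14 and 0.21).

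Chaf1b, a subunit of the complex that places histones on new DNA, had log2 signals of 7.46, 7.17, 7.13, 7.74 and 7.34 in NKT-like cells, 7.34, 7.87 and 7.85 in cultured CD4+ cells, 8.34 and 7.21 in activated cells and 6.85 and 6.57 in naïve cells. The stimulated arrays were all above the naïve arrays, and no difference passed (limma q = 0.044, 0.017 and 0.041).

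Of the 4 genes of the passage into S phase, Ccne1 rose in all 3 groups, Cdk2 in cultured CD4+ and activated cells and Ccne2 in cultured CD4+ cells. Ccne1 (cyclin E1) had 8.96 and 9.58 in naïve, 10.53, 10.29, 9.84, 10.40 and 10.23 in NKT-like, 10.22, 10.66 and 10.54 in cultured CD4+ and 10.85 and 10.77 in activated cells (log2 signal). All stimulated arrays were above the naïve ones, and NKT-like and cultured CD4+ arrays overlapped. The ratios were 1.99, 2.31 and 2.92 (limma q = 0.0026, 0.0015 and 0.0020), and without naïve replicate 1 none passed (q = 0.045, 0.020 and 0.017). The activated call was also lost without activated replicate 1 (q = 0.017).

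Ccne2 (cyclin E2) had log2 signals of 5.94 and 6.92 in the naïve arrays, 7.95, 7.93, 6.03, 8.10 and 6.84 in the NKT-like arrays, 8.22, 9.09 and 9.09 in the cultured CD4+ arrays and 9.30 and 8.61 in the activated arrays. The NKT-like arrays ran from below the naïve mean in replicate 3 to well above it in replicate 4, the widest spread among the genes of this group. Its ratio to naïve was 5.16 in cultured CD4+ cells (limma q = 0.0065), 5.74 in activated cells (q = 0.018) and 1.91 in NKT-like cells (q = 0.093). The first was lost without either naïve array (q = 0.059 and 0.025) or cultured CD4+ replicate 2 or 3 (q = 0.030 and 0.027). E2f1, the transcription factor, had log2 signals of 8.66, 8.22, 8.25, 8.99 and 8.61 in NKT-like cells, 9.14, 9.27 and 8.66 in cultured CD4+ cells, 8.60 and 8.27 in activated cells and 8.02 and 8.33 in naïve cells. Its cultured CD4+ arrays were above the naïve and activated ones, and no difference passed (q = 0.10, 0.013 and 0.39).

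CD8+ NKT-like cells had lower signals than cultured CD4+ cells in nearly the whole set. Of the 45 means, 44 were lower and 1 (Orc2) was higher, the median log2 difference was -0.83 where that over all genes was -0.00, and in 32 of 45 genes every NKT-like array was below every cultured CD4+ array (8.26% of all genes). Only 4 genes passed, all lower (Gins1, Pcna, Lig1 and Cdk2), where 1.85% of all genes were called lower, and 0 were higher (1.24% of all genes). At an unadjusted p under 0.05 the limma fit had 37 lower (10.7% of all genes) and 0 higher. The count of 4 was 2 with median centring, 7 with a filter on dim probe sets and 8 with each gene's probe sets averaged. Cell type differs together with the starting selection in this comparison (CD4+ against CD8+ cells), and the effects of these cannot be told apart.

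For the 4 genes called, the arrays are given above except for Cdk2, the kinase partner of cyclin E. Cdk2 had 7.77 and 7.57 in naïve, 8.77, 8.06, 8.49, 8.64 and 7.89 in NKT-like, 9.27, 9.71 and 9.61 in cultured CD4+ and 9.61 and 9.06 in activated cells (log2 signal). The NKT-like arrays did not overlap with the cultured CD4+ arrays, and replicates 2 and 5 were closest to naïve. NKT-like cells were 2.24-fold lower in Cdk2 (log2 -1.16 ± 0.21, limma q = 0.0083), 2.66-fold lower in Gins1 (-1.41 ± 0.25, q = 0.0077), 1.90-fold lower in Pcna (-0.93 ± 0.14, q = 0.0033) and 1.89-fold lower in Lig1 (-0.92 ± 0.14, q = 0.0033). Pcna and Lig1 did not pass without cultured CD4+ replicate 2 (q = 0.019 and 0.022) or 3 (q = 0.025 and 0.026). Gins1 was lost without any 1 NKT-like array (q = 0.011 to 0.020), cultured CD4+ replicate 2 or 3 (q = 0.045 and 0.054) or any 1 naïve array (q = 0.011), and Cdk2 without NKT-like replicate 2, 3, 4 or 5 (q = 0.011 to 0.018), any 1 cultured CD4+ array (q = 0.011 to 0.054) or any 1 naïve array (q = 0.015). With either of cultured CD4+ replicates 2 and 3 left out, 0 of the 45 passed, and 2 passed without NKT-like replicate 2 or 5 or either naïve array.

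Against activated CD8+ cells the picture was close to that. In 32 of 45 genes every NKT-like array was below both activated arrays (10.6% of all genes), the median log2 difference was -0.90, and 5 genes were called lower and 0 higher (1.00% of all genes lower and 3.36% higher). At an unadjusted p under 0.05, 32 were lower (10.3% of all genes) and 0 higher by limma. Fits of only these 2 groups called 0 genes, median centring 1, the filter on dim probe sets 10, averaged probe sets 11 and quantile normalization 18, so the number called depends on the processing. The genes called were the helicase subunits Mcm7 (2.47-fold lower, log2 -1.31 ± 0.23, q = 0.0043), Mcm3 (2.43-fold, -1.28 ± 0.23, q = 0.0054) and Mcm2 (1.94-fold, -0.96 ± 0.18, q = 0.0060), together with Lig1 (1.90-fold, -0.93 ± 0.16, q = 0.0047) and Pcna (1.77-fold, -0.83 ± 0.17, q = 0.0087). Larger differences with larger errors did not pass, among them Cdc6 (-1.76 ± 0.41, q = 0.019) and Ccne2 (-1.59 ± 0.54, q = 0.070). Orc2 and Tk1 differed by 0.01 and 0.02.

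With activated replicate 1 left out 0 of the 45 passed against activated cells (q = 0.021 for Mcm7, 0.027 for Mcm3, 0.018 for Mcm2, 0.024 for Lig1 and 0.034 for Pcna), and without activated replicate 2 only 1, Lig1, did. The count was 2 without NKT-like replicate 2 or 5 or without replicate 2 of the CD4+ cultures, and 3 without NKT-like replicate 4 or the third of the CD4+ cultures. Mcm7 was lost without an activated array and not otherwise among the arrays left out. Its 2.47-fold is that of the brightest probe set. With all arrays, its other probe sets gave log2 differences of -1.30 (limma q = 0.0070), -0.98 (q = 0.018) and -0.83 (q = 0.12).

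Cultured CD4+ and activated CD8+ cells, set against each other, gave 0 of 45 genes called in either direction by limma (1.53% of all genes higher and 0.319% lower), with 1 gene (E2f1) higher at an unadjusted p under 0.05 (11.9% of all genes) and a median log2 difference of -0.06, the single genes lying between -0.39 and 0.59. In 3 genes every cultured CD4+ array was above both activated arrays (15.5% of all genes) and in 6 below (8.87%). With 3 and 2 arrays, differences of this size were not detectable beyond the spread between replicates, which does not show that the levels were equal.

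**Figure D4:**
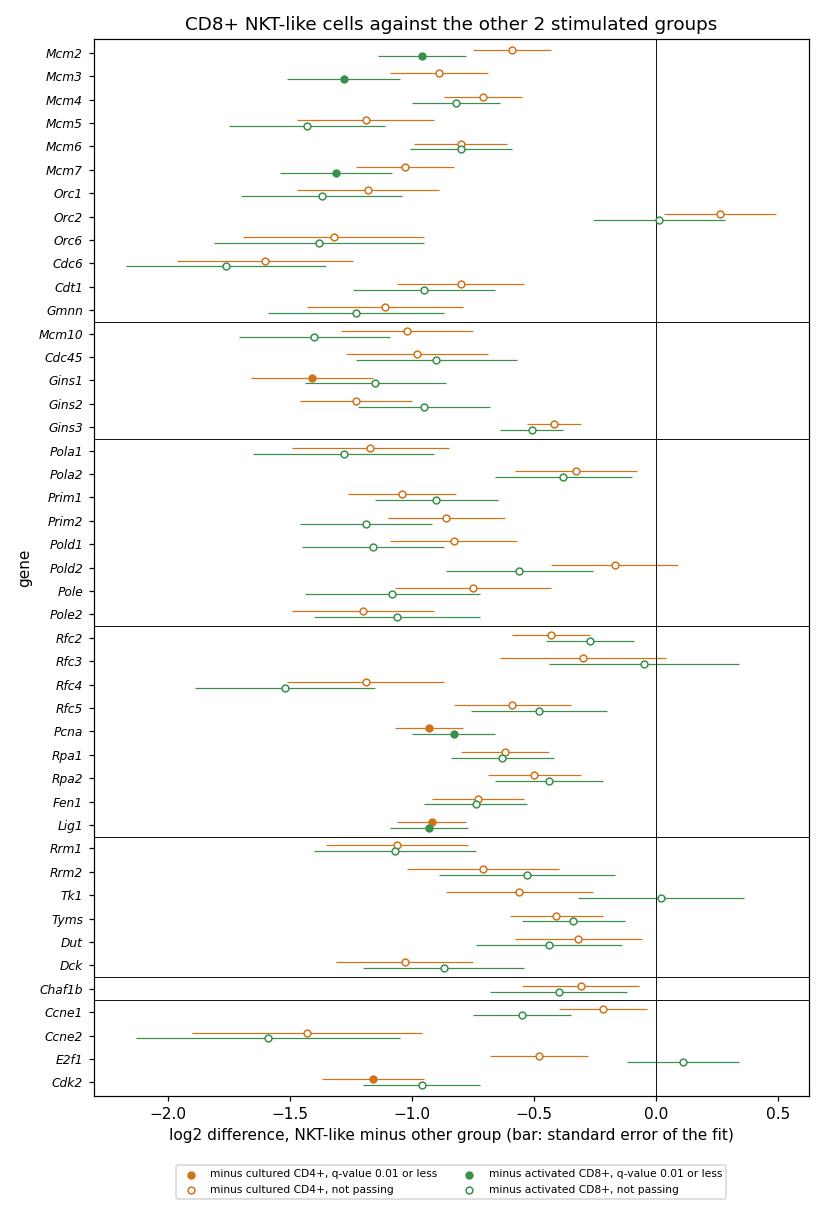
Log2 difference of CD8+ NKT-like cells from cultured CD4+ (orange) and from activated CD8+ cells (green) for each gene (horizontal axis), with the standard error of the limma fit as a bar and filled points for q of 0.01 or less. Nearly all points lie to the left of 0, and Orc2 (0.26 against cultured CD4+ cells) lies farthest to the right.

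The 5 NKT-like cultures differed among themselves in these genes more than in most. The median SD over the 5 arrays was 0.40 log2 for the 45 genes against 0.15 for all genes, and the median range was 1.01 against 0.36. The all-gene figures include genes of low signal, and no comparison was made with genes of like signal. Replicate 3 was the lowest of the 5 in 32 of 45 genes (71.1%, against 20.9% of all genes) and replicate 5 in 8 (17.8%, near the 17.7% of all genes). Replicate 1 was the highest in 23 (51.1%, against 18.4% of all genes) and replicate 4 in 17 (37.8%, against 16.5%). Rrm1 and Rrm2 show it most plainly, with replicate 3 at 8.82 in Rrm1 where the other 4 were at 10.09 to 10.21, and at 10.48 in Rrm2 where the others were at 11.38 to 11.72. Rfc3 did not follow it and was lowest in replicate 1.

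Other groups were uneven as well. Cultured CD4+ replicate 1 was the lowest of its 3 in 39 of 45 genes (86.7%, against 38.5% of all genes). Activated replicate 1 was above replicate 2 in 43 of 45 (51.0% of all genes), with a median difference of -0.57 log2 for replicate 2, where the median over all genes was -0.02. The naïve arrays differed by a median of 0.26 (0.04 over all genes). Naïve replicate 2 was the higher in 26 (57.8%), a share near the 55.9% of all genes. The SD of the signals over all probe sets was 1.80 in activated replicate 2 against 2.00 in replicate 1, and 1.91 in cultured CD4+ replicate 1 against 2.03 and 2.01 in the other arrays of that group, and its part in the result was not tested. Among the NKT-like arrays this SD was 1.95 to 2.00, and 1.97 in replicate 3. The naïve arrays, which are the reference of the main comparisons, had 1.83 and 1.78, so they were narrower than every NKT-like and cultured CD4+ array.

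**Figure D5:**
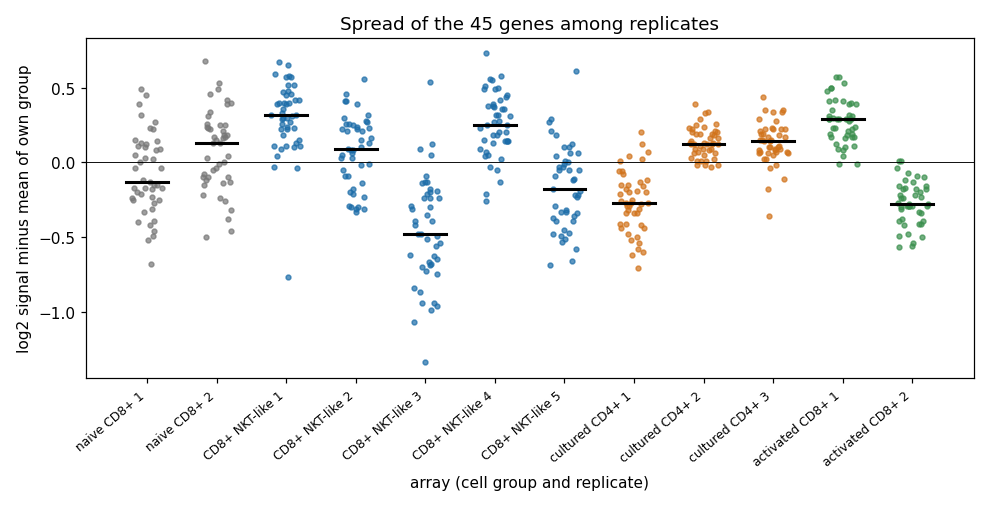
Log2 signal of each of the 45 genes minus the mean of its own group (vertical axis), by array, with 1 point per gene and a bar at the median of the array. NKT-like replicate 3 lies lowest, cultured CD4+ replicate 1 and activated replicate 2 lie below the other arrays of their groups, and the lowest point of NKT-like replicate 1 is Rfc3.

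Further genes of the same processes, taken from 3 lists, are given by their counts. Of 34 other genes of the replication machinery, 9, 17 and 10 rose in NKT-like, cultured CD4+ and activated cells against naïve and 0 fell (10.7%, 11.6% and 4.43% of all genes rose). At an unadjusted p under 0.05 limma had 2, 0 and 0 of them lower. Top2a, the topoisomerase that untangles replicated DNA, had log2 signals of 9.18 and 8.82 in the naïve arrays, 10.97, 10.74, 9.69, 11.03 and 10.16 in the NKT-like arrays, 11.84, 11.80 and 11.84 in the cultured CD4+ arrays and 11.80 and 11.36 in the activated arrays, with the NKT-like arrays between the naïve and the other arrays. Its log2 differences were 1.52 ± 0.32, 2.83 ± 0.35 and 2.58 ± 0.38 (limma q = 0.0027, 1.3e-04 and 0.0014). Tipin, of the complex that steadies the fork, followed with 1.53, 2.25 and 2.41. Against cultured CD4+ cells 1 of the 34 was called, the kinase gene Cdc7 (-1.54 ± 0.28, q = 0.0084), and against activated cells 1, Pold4, a small subunit of the polymerase delta, which was higher in NKT-like cells (1.23 ± 0.21, q = 0.0042). Each is 1 gene of 34, where 1.85% of all genes were lower than in cultured CD4+ cells and 3.36% higher than in activated cells.

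Of 28 measured other genes of nucleotide synthesis, 10, 11 and 11 rose against naïve (10.7%, 11.6% and 4.43% of all genes) and 0 fell (6.86%, 5.64% and 2.78% of all genes; at an unadjusted p under 0.05, limma had 4, 2 and 2 lower). The largest differences in activated cells were those of Mthfd2 (2.84 ± 0.27, limma q = 1.0e-04) and Shmt2 (2.48 ± 0.40, q = 0.0023), mitochondrial enzymes of folate metabolism, and Cad, which starts pyrimidine synthesis, had 2.35 ± 0.46 (q = 0.0058). In NKT-like cells these were 2.05, 1.57 and 1.90 (q = 6.4e-05, 0.0031 and 0.0025). Samhd1, which breaks down deoxynucleotides, had log2 signals of 9.91, 10.05, 10.11, 9.71 and 9.35 in NKT-like cells, 11.85, 11.21 and 11.12 in cultured CD4+ cells, 10.52 and 10.15 in activated cells and 10.66 and 10.20 in naïve cells. The NKT-like arrays were all below all cultured CD4+ arrays (-1.57 ± 0.22, q = 0.0015), in the opposite direction to Impdh1, of guanine nucleotide synthesis, which was higher in NKT-like cells (0.81 ± 0.13, q = 0.0036). Against activated cells 1 of the 28 was called higher in NKT-like cells (3.36% of all genes) and 0 lower (1.00%), while only 4 of the 28 means were higher there.

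Of 23 other regulators of the passage from G1 into S phase, 10, 15 and 7 rose against naïve and 1 fell in each group, a share near that of all genes called lower (6.86%, 5.64% and 2.78%), while 10.7%, 11.6% and 4.43% of all genes rose. The gene that fell was Cdkn1b, an inhibitor of cyclin-dependent kinases, with 8.33 and 8.84 in naïve, 6.58, 7.06, 7.17, 7.55 and 6.45 in NKT-like, 7.41, 7.14 and 7.29 in cultured CD4+ and 7.21 and 6.77 in activated cells (log2 signal). All stimulated arrays were below both naïve arrays (-1.62 ± 0.27, -1.30 ± 0.29 and -1.60 ± 0.32, limma q = 8.0e-04, 0.0042 and 0.0063). Another inhibitor, Cdkn1a, had log2 signals of 7.67 and 7.59 in the naïve arrays, 11.83, 12.42, 12.63, 12.50 and 12.19 in the NKT-like arrays, 11.48, 12.05 and 12.17 in the cultured CD4+ arrays and 9.98 and 9.75 in the activated arrays. It was the largest change of this list, at 4.68 ± 0.22 in the NKT-like and 4.27 ± 0.24 in the CD4+ cultures and 2.24 ± 0.27 in activated cells (q = 1.4e-07, 6.6e-07 and 4.1e-04), with the NKT-like arrays all above the activated arrays (2.45 ± 0.22, q = 7.2e-05). Rbl2, a relative of the retinoblastoma protein, was also higher in NKT-like than in activated cells (3.61 ± 0.45, q = 5.9e-04), its activated arrays being at 7.55 and 5.52. Cdk6, a kinase of G1, was 2.42 ± 0.11 above naïve in NKT-like cells (q = 1.4e-07) and 0.82 ± 0.11 above activated cells (q = 0.0013).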

How the data were processed

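RNA of 12 samples was hybridized to Affymetrix whole-genome mouse arrays, 1 array per sample. The deposited values are log2 signals that the authors made with RMA (background correction, quantile normalization and summary of each probe set), whose version the sources used here do not give. RMA of all arrays together can move a shift shared by most genes into the others. Of 45101 probe sets, 64 controls were left out and 45037 were tested. By the platform annotation 34945 carried 1 gene symbol, 932 several and 9160 none.

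Samples were grouped by their titles. The study's methods name limma with pairwise comparisons and Storey's q-value, and do not say whether the groups shared a model. Here 1 linear model with the 4 groups was fitted with limma 3.58.1 in R 4.3.3 (8 residual degrees of freedom), each of 6 comparisons was adjusted by Storey's q-value over all probe sets, computed by code written for this work and tested on simulated data, and q of 0.01 or less was called at any fold. Each gene was represented by its single-symbol probe set of highest mean. The number of arrays limits the precision. The 8 cultures are described as independent. Of the naïve and activated samples nothing says so, and p-values then measure only the spread between these samples, which may be technical.

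The genes, the 3 further lists and the cell markers were chosen with earlier results of these data known. Values in every array are given for the genes of highest and lowest mean in each role group, for those called between NKT-like and cultured CD4+ cells, for those called in no comparison with naïve cells, and for the 5 largest differences in each of these. From the 3 further lists, up to 4 of the genes with the largest differences that passed are named for each, with those that passed against the direction of most. The exception is 1 nucleotide gene higher in NKT-like than in activated cells, which is given by its count alone. Promoter windows came from RefSeq. The 21 alternatives covered the q-value, the fit, normalization, probe sets and 12 fits without 1 array each. Whether replicate numbers pair samples across groups is not known. Deviations of same-numbered arrays of different groups had correlations from -0.50 to 0.28 over 13 pairs. In a group of 2 arrays the deviations are equal and opposite, so these correlations cannot decide it.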

Additional observations from a re-analysis of the deposited data

Results flagged for a closer look

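In the 45 genes, the 5 CD8+ NKT-like arrays were searched for an array standing apart from the other 4, by the gap to its nearest neighbor as a share of the whole range (Dixon's criterion), and 2 genes had one. Rrm1, the large subunit of ribonucleotide reductase, was at 8.82 in NKT-like replicate 3 and at 10.09 to 10.21 in the other 4, a gap of 0.91 of the range. Rrm2, the small subunit of the same enzyme, was at 10.48 in NKT-like replicate 3 and at 11.38 to 11.72 in the other 4, a gap of 0.72 of the range. Chance flags about 1 in 20 groups, and 45 genes were searched. Both lie in the array that was the lowest of the 5 in 32 of the 45 genes.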

How the results depend on the processing

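The counts of genes passing were 17, 31 and 26 of 45 against naïve (NKT-like, cultured CD4+ and activated cells), 4 and 5 for NKT-like against cultured CD4+ and activated cells, and 0 for cultured CD4+ against activated cells, the last also 0 in every alternative. Benjamini-Hochberg adjustment gave 8 for NKT-like against naïve. Fits of only the 2 groups compared gave 0 for activated against naïve and for NKT-like against activated cells. With a replicate block the first 5 counts were 2, 15, 4, 0 and 0, and whether replicate numbers pair samples is not known. For NKT-like against cultured CD4+ and against activated cells, the counts were 2 and 1 with median centring, 8 and 11 with the mean of all probe sets, and 7 and 10 with a filter on dim probe sets. For NKT-like against activated cells they were 18 with quantile normalization, 2 with probe sets of other types and 3 with a trended, robust prior. Without both naïve arrays, an alternative chosen after seeing the data, NKT-like against cultured CD4+ gave 2. Without 1 array at a time the counts ran from 2 to 18, 14 to 35, 4 to 31, 0 to 5 and 0 to 6, and a lone array in a group was assumed to vary like the others. Quantile normalization also called Cdt1 lower in NKT-like than naïve cells (-1.25, q = 0.0035). Over 83 calls of single genes and 1752 refitted values, 1323 still passed, 429 did not and 0 reversed, and 11 calls passed throughout. The cause of these shifts was not tested, and low signal limits what can be said of Tyms.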
